A study of Mus musculus with 17 samples.

Results

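The genes described here set the pace of the G1 phase of the cell cycle: the D-type cyclins Ccnd1, Ccnd2 and Ccnd3, the E-type cyclins Ccne1 and Ccne2, the cyclin-dependent kinases Cdk4, Cdk6 and Cdk2, the pocket protein Rb1 and the transcription factor E2f1. They were taken by symbol. A probeset was used only if its annotation named 1 of these genes and no other gene, which gave 29 probesets, and the probeset of highest mean stood for the gene. The set is 10 of 18193 genes measured in this way. Expression was measured in 17 primary abdominal tumors of TH-MYCN mice, 1 whole-genome Affymetrix mouse expression array per tumor, and the tumors are named by the submitters' numbers, mad548 to mad565. In these hemizygous mice, bred onto an inbred background, a human MYCN transgene is driven by the tyrosine hydroxylase promoter, which is active in the sympathoadrenal lineage of the neural crest, so MYCN is expressed from a transgene and not from an amplified endogenous gene. All tumors belong to a single group, the labels give neither sex nor age for a tumor, and there is no normal tissue among the arrays used. The questions that can be asked are therefore how evenly these genes were expressed and which of them varied together.

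As background, mitogens induce D-type cyclins, which activate Cdk4 and Cdk6, and these kinases phosphorylate the retinoblastoma protein Rb. Phosphorylated Rb releases E2F transcription factors such as E2F1, which induce E-type cyclins and the genes of DNA replication, and cyclin E with Cdk2 completes the phosphorylation of Rb. Cyclin D1 is known to be abundant in human neuroblastoma, and CDK4 is a known target gene of the MYC family of transcription factors.

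Values are deposited log2 expression values (RMA), so a difference of 1 is a 2-fold difference. Hybridization differs between probesets, so levels were compared between tumors and not between genes. Within each array a probeset was also placed in a quartile (1 lowest, 4 highest) of the probesets with 1 gene symbol, where a poorly hybridizing probeset also ranks low. The study used such quartiles too, but among probesets with a human ortholog and averaged per unigene. The array medians lay between 6.28 and 6.51, and the median SD of a gene over the tumors was 0.193. Of 20 measured sympathoadrenal genes, such as those of catecholamine synthesis, 16 were in the highest quartile in every tumor, as were 26 of 28 E2F target and replication genes and all 21 mitosis genes. Tumor mad562 stood apart: its median correlation with the other arrays was 0.978, the lowest of the 17, and it had the highest means of the macrophage, endothelial, hepatocyte, B cell and T and NK cell lists. Tumors mad553, mad550 and mad549 had the highest skeletal muscle means (12.04, 10.62 and 9.73, against at most 6.70 in the other tumors). Relations between genes that passed the tests are given with and without these tumors. The tumor pieces are bulk tissue, in which fewer cells of a type and less RNA per cell cannot be told apart.

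Ccnd1, Ccne1, Cdk4 and Rb1 were in the highest quartile in all 17 tumors, 4 of 10 genes, as were 5129 of all 18193 genes (28.2%). Their SDs over the tumors were 0.30, 0.17, 0.18 and 0.16, and those of Ccne1, Cdk4 and Rb1 were above the SDs of 36.6%, 44.9% and 30.3% of all genes, while that of Ccnd1 was above 80.6%. For Ccne1 this holds for the chosen probeset only, as its other probeset was in the highest quartile in 13 tumors. E2f1 was in the highest quartile in 15 tumors and Ccne2 in 11. Cdk2 was in the third quartile in all 17 tumors. Ccnd2 and Cdk6 varied most of the 10, with SDs of 1.03 and 0.75 that were above those of 99.1% and 97.6% of all genes. Ccnd3 had an SD of 0.31 (above 80.8%), Ccne2 of 0.27 (74.6%), Cdk2 of 0.25 (70.0%) and E2f1 of 0.15 (26.2%).

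**Figure D1:**
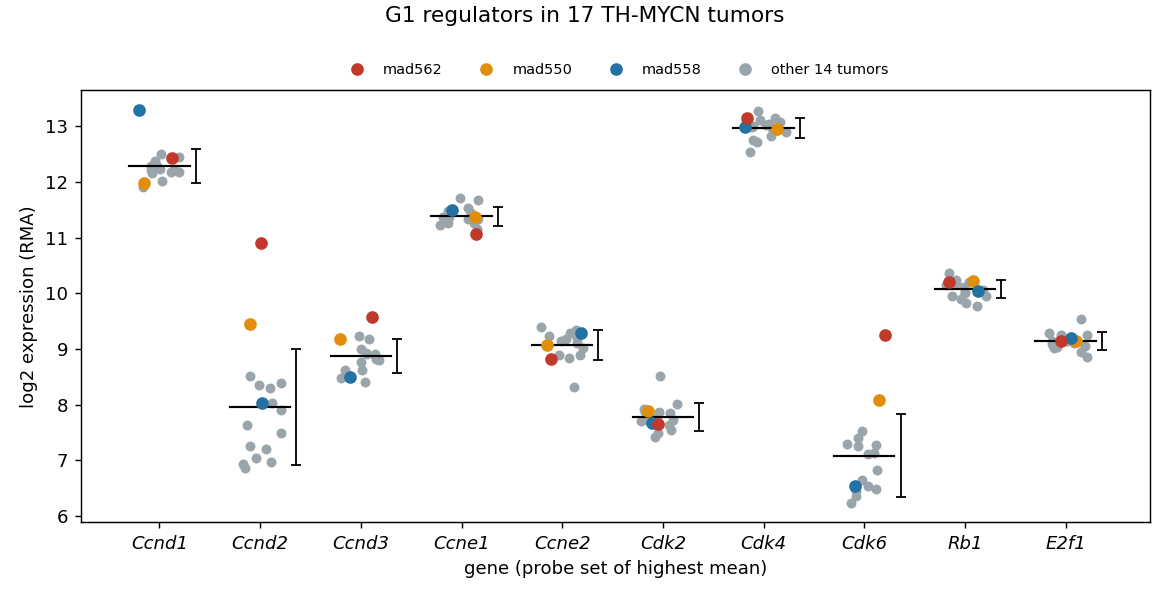
Log2 expression of the 10 G1 genes (x axis) in 17 tumors (points), with the mean (line) and SD (bar) of each gene; levels of different genes are not comparable because their probesets differ. Tumors mad562 (red), mad550 (orange) and mad558 (blue) are marked: mad562 is the highest tumor for Ccnd2, Ccnd3 and Cdk6, and mad558 for Ccnd1.

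Of the D-type cyclins, Ccnd1 is the partner of Cdk4 and Cdk6 that is classically induced by growth signals. By its chosen probeset it was expressed evenly except in 1 tumor. Its log2 value ran from 11.91 in mad565 through a median of 12.23 to 13.29 in mad558. The other 16 tumors lay between 11.91 and 12.50 (12.23 ± 0.16, SD, n = 16), so mad558 exceeded their mean by 1.07, or 2.09-fold, and lay 0.80 above the next tumor. A second Ccnd1 probeset was also highest in mad558 (12.63, next tumor 12.23). The third was not: it read 11.40 in mad558 within a range of 10.63 to 11.70, with the highest value in mad552. The 3 Ccnd1 probesets therefore gave different sizes for the same tumor, and which of them reflects the transcript level was not tested.

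Ccnd2, a D-type cyclin also prominent in lymphoid and other normal cells, was the most variable member. Its log2 value ran from 6.87 in mad560 through a median of 7.90 to 10.90 in mad562, a 16.4-fold range. Tumor mad550 followed at 9.46 and mad552 at 8.52, and the other 14 tumors lay below mad552 without a gap that separates them from it. Without mad562 the range was still 6.01-fold. The gene has 7 probesets, and 6 of them were highest in mad562. Those other than the chosen probeset correlated with it at r = 0.98, 0.98, 0.95, 0.94 and 0.86 over the 17 tumors. The seventh, in the lowest quartile in every tumor, correlated at 0.42.

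Ccnd3, the third D-type cyclin, ran from 8.41 in mad556 through a median of 8.84 to 9.57 in mad562, with mad552 next at 9.24. Its range was 2.24-fold. The tumors formed a continuous series and mad562 exceeded the next by 0.32. Its other 2 probesets were dimmer and did not follow the chosen one (r = 0.28 and -0.17), so the Ccnd3 pattern rests on 1 probeset.

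The log2 value of Cdk4, the kinase partner of the D-type cyclins, ran from 12.53 in mad553 through a median of 12.99 to 13.27 in mad563, a 1.67-fold range, and all 3 of its probesets were in the highest quartile in every tumor. The 2 others followed the chosen probeset at r = 0.95 and 0.92. The lowest tumor, mad553, was also the tumor with the highest skeletal muscle mean. Over the 17 tumors Cdk4 had r = -0.48 with that mean (rho = -0.58, adjusted p = 0.999 by limma), and -0.07 without mad550 and mad553. Whether the admixed tissue lowered the value was not tested.

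MYC family proteins bind the E-box CACGTG, and the bases before the start of Cdk4 are shown because they hold this motif 4 times. The sequence is the 250 bases before the annotated start, from RefSeq (GRCm38.p6, chr10:127063285-127063534, plus strand), 5′ to 3′, with each CACGTG in capitals. The motif is a palindrome, so 1 search covers both strands. For comparison, a window of the same length of Cdk6 (chr5:3343643-3343892, plus strand), the other kinase of the D-type cyclins, holds it once. That window lies inside the span of Cdk6 (chr5:3341004-3531008), before an internal annotated start, whereas that of Cdk4 ends where the gene's span begins.
Cdk4: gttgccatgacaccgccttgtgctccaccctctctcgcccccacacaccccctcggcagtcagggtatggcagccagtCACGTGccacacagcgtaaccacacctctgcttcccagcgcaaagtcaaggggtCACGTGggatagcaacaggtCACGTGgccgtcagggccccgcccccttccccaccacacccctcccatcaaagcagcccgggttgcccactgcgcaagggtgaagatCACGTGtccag
Cdk6: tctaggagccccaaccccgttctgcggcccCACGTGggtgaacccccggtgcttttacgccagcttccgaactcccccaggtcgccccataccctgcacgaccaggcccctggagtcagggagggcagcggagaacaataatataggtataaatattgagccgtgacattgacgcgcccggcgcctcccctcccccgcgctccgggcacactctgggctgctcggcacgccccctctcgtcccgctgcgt

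The motifs of Cdk4 begin 172, 118, 98 and 11 bases before its start and that of Cdk6 220 bases before the internal start used for that gene. Of the 32851 promoter windows of this length in the RefSeq table, 6.02% held CACGTG at least 1 time and 7 windows (0.0213%) held it 4 or more times. The table matched 6 of the 10 genes by symbol, with 7 windows, and the windows of E2f1, Ccne1, Cdk2 and Ccnd3 held no CACGTG. The windows of E2f1 and Cdk6 and the later window of Ccnd3 lie inside the span of their gene, before an internal annotated start. The bases before the outermost start of E2f1 and of Cdk6 were therefore not searched. The E2F-type motifs TTTCCCGC, TTTCGCGC, TTTGCCGC and TTTGGCGC were searched on both strands. They were in 1.86% of all windows and, among the windows of the matched genes, only in that of Cdk2, which held 1. For E2f1 this does not show whether such motifs precede its outermost start, because its window lies inside the gene. These matches describe the letters of the windows, and binding was not measured. Windows for Ccnd1, Ccnd2, Ccne2 and Rb1 were not used here.

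Cdk6 ran from 6.24 in mad556 through a median of 7.12 to 9.24 in mad562, an 8.0-fold range. Tumor mad550 was next at 8.09, followed by mad553 at 7.54, so the 2 highest tumors were the same as for Ccnd2. Without mad562 the range was 3.59-fold. A second Cdk6 probeset followed the first (r = 0.94) with the same 2 highest tumors, whereas the remaining, dim probeset did not (r = 0.37).

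Cdk2, the partner of the E-type cyclins, ran from 7.42 in mad552 through a median of 7.73 to 8.51 in mad565. The next tumor was mad549 at 8.01, so mad565 stood apart at the top and the other 16 tumors formed a continuous series. The second Cdk2 probeset, in the lowest quartile in every tumor, did not follow the chosen one (r = -0.21). The Cdk2 pattern therefore rests on 1 probeset.

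Of the E-type cyclins, Ccne1 ran from 11.07 in mad562 through a median of 11.38 to 11.71 in mad556, a 1.56-fold range. The tumor with the highest Ccnd2 and Cdk6 was thus the lowest for Ccne1, by 0.08 below mad553. A second Ccne1 probeset followed the first at r = 0.56. It read 8.69 in mad562, where its lowest value was 8.63, and was highest in mad548 (9.56). Ccne2, measured by 1 probeset, ran from 8.31 in mad563 through a median of 9.15 to 9.40 in mad555. Tumor mad563 lay 0.50 below the next, mad562 at 8.81, and the others filled the range up to 9.40 without a gap of that size.

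Rb1, which restrains E2F factors until it is phosphorylated, was expressed in all tumors and was never low. Its log2 value ran from 9.77 in mad560 through a median of 10.06 to 10.37 in mad555, a 1.52-fold range, the narrowest of the 10 genes. Its second probeset, in the lowest quartile in every tumor, had r = 0.24 with it. E2f1 ran from 8.85 in mad565 through a median of 9.14 to 9.54 in mad548, a 1.62-fold range. Its highest tumor stood 0.26 above the next, mad549 at 9.29. Its other 2 probesets had r = 0.41 and 0.46 with the chosen one and were highest in mad556 and mad555, so the highest tumor of E2f1 differed between probesets.

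**Figure D2:**
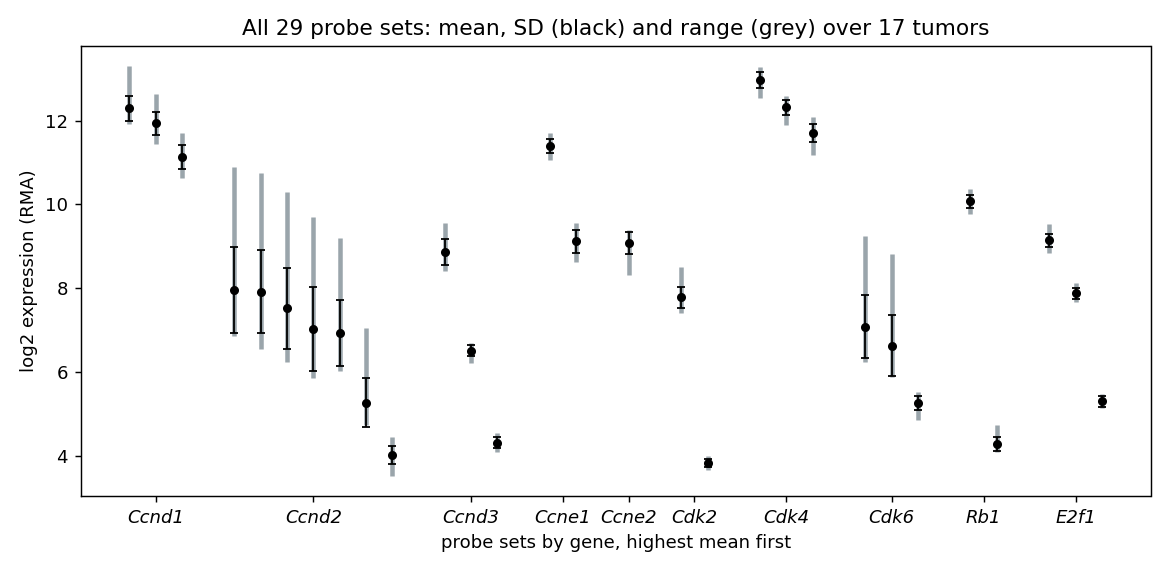
Log2 expression (y axis) of all 29 probesets of the 10 genes (x axis, highest mean first within a gene): points are means, black bars SDs and grey bars the range over 17 tumors. The wide ranges of Ccnd2 were shared by 6 of its 7 probesets and those of Cdk6 by 2 of 3, while every Cdk4 probeset had a narrow range.

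To ask which of the G1 genes varied together, all genes were fitted with limma on the log2 value of each member in turn, and p-values were adjusted by Benjamini-Hochberg over all 18192 genes tested. A pair passed if its adjusted p was under 0.05 in the fits of both members. Of 45 pairs, 2 passed. Cdk6 rose with Ccnd2 (r = 0.85, Spearman's rho = 0.69, permutation p = 0.00024 and 0.00295, slope 0.61 ± 0.09 log2 units of Cdk6 per log2 unit of Ccnd2, SE, adjusted p = 0.000404, the larger of the 2 fits). Cdk6 also rose with Ccnd3 (r = 0.73, rho = 0.58, permutation p = 0.00111 and 0.0157, slope 1.78 ± 0.40, adjusted p = 0.0236). The third pair of these genes, Ccnd2 and Ccnd3, had r = 0.58 (rho = 0.38, permutation p = 0.0141 and 0.129) and did not pass (adjusted p = 0.167). Called genes were 3.99% of all genes tested in the fit of Ccnd2, 1.91% for Ccnd3 and 4.53% for Cdk6, so 1 called member among the 9 others in the fit of Ccnd2, 1 in that of Ccnd3 and 2 in that of Cdk6 are to be read against those shares.

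Both relations depended on tumor mad562. Without it, r was 0.67 for Ccnd2 and Cdk6 (slope 0.48, adjusted p = 0.165) and 0.54 for Ccnd3 and Cdk6 (slope 1.09, adjusted p = 0.774), and neither pair passed. Without the muscle-rich tumors mad549, mad550 and mad553 both passed (r = 0.83 and 0.82, adjusted p = 0.00435 and 0.0187). After removal of mad550 and mad562, which lay farthest from the Ccnd2 median, r for Ccnd2 and Cdk6 was 0.48, and without mad556 and mad562 r for Ccnd3 and Cdk6 was 0.45. Leaving out mad550 alone also lost the pair of Ccnd3 and Cdk6 (adjusted p = 0.0573), and so did centring each array on its median (adjusted p = 0.140).

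**Figure D3:**
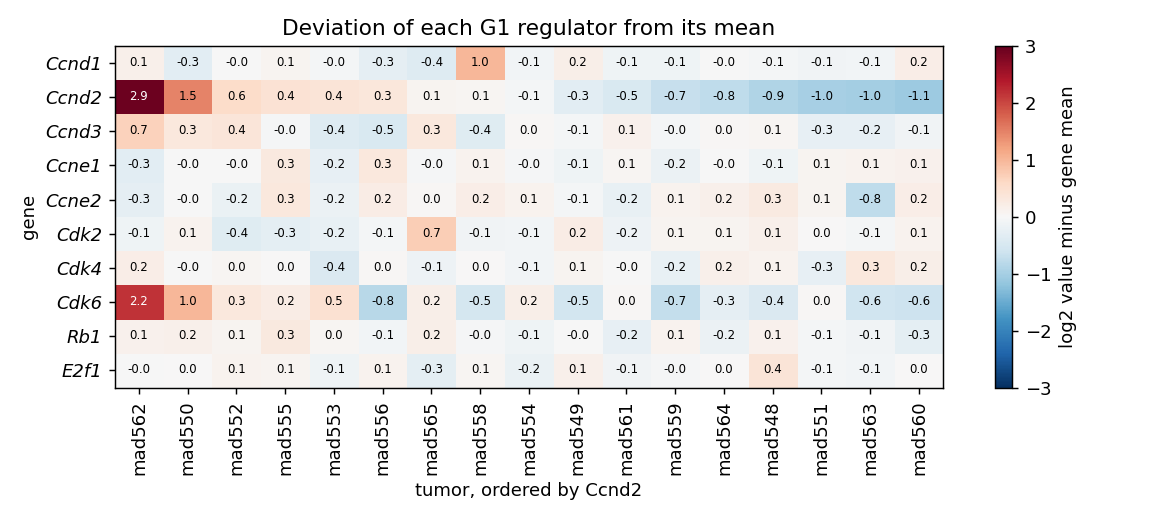
Log2 value of each G1 gene (rows) in each tumor (columns, ordered by Ccnd2) minus the mean of that gene, as color and number. Ccnd2 and Cdk6 were both far above their means in mad562 (2.9 and 2.2) and mad550 (1.5 and 1.0), while Ccnd1 was high in mad558 and Ccne2 low in mad563.

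Of the 45 pairs, 41 had an absolute r under 0.5, 23 had a positive r, and the median r was 0.01. A permutation p for r under 0.05 was found in 6 pairs, the 3 above and 3 others, none of which passed. Ccnd2 and Rb1 had r = 0.51 (rho = 0.63, permutation p = 0.0359 and 0.00849, adjusted p = 0.645), and 0.49 without mad550 and mad562. Ccne1 had r = -0.49 with Cdk6 (rho = -0.36, permutation p = 0.0470 and 0.156, adjusted p = 0.505) and -0.48 with Ccnd3 (rho = -0.40, permutation p = 0.0493 and 0.110, adjusted p = 0.531), which were -0.03 and -0.06 without mad556 and mad562. The kinase Cdk4 and its partner Ccnd1 had r = 0.22 (rho = 0.49, permutation p = 0.379 and 0.0483, adjusted p = 0.9997). Ccne1 and Ccne2 had r = 0.27 (rho = 0.38, permutation p = 0.292 and 0.138, adjusted p = 0.950). Rb1 and E2f1 had r = 0.19 (rho = 0.20, permutation p = 0.473 and 0.445, adjusted p = 0.937). With 17 tumors these values do not show that the genes were unrelated. The fits of the 7 other members called few genes in all: 1 for Ccnd1 (0.0055%), 1 for Ccne1 (0.0055%), 6 for Cdk2 (0.033%) and 0 (0%) for Ccne2, Cdk4, Rb1 and E2f1 by limma, where 1059, 2235, 1261 and 1316 genes had an unadjusted p under 0.05.

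Each member was then set against 9 gene lists, 2 of the cell cycle, 1 of sympathoadrenal identity and 6 of other cell types that a tumor piece can hold, by fitting all genes on the mean log2 value of the list. Of 90 relations, 3 passed, and all 3 were with the 15 macrophage genes: Cdk6 (r = 0.77, rho = 0.66, permutation p = 0.00039 and 0.00489, slope 1.15 ± 0.22, adjusted p = 0.00303), Ccnd3 (r = 0.71, rho = 0.65, permutation p = 0.0014 and 0.00567, slope 0.43 ± 0.11, adjusted p = 0.0202) and Ccnd2 (r = 0.64, rho = 0.46, permutation p = 0.00644 and 0.0664, slope 1.31 ± 0.37, adjusted p = 0.0449). In the fit on the macrophage list 5.08% of all genes tested were called, and 3 of the 10 members were. The mean of that list ran from 8.73 in mad558 through a median of 9.39 to 10.64 in mad562, with mad550 next at 10.16. Tumor mad548 also had a high list mean (10.01), but its Ccnd2 (7.05) and Cdk6 (6.64) were below the means of these genes. None of the 15 macrophage genes was in the lowest quartile in every tumor, and 7 were in the highest quartile in every tumor. The part of macrophage RNA in these 3 patterns was not tested.

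The genes of the macrophage list were also counted 1 by 1. With Cdk6, 9 of 15 passed, all upward, among them Tyrobp (r = 0.92, adjusted p = 7.93e-06), a signaling adaptor of myeloid cells, and Laptm5 (r = 0.89, adjusted p = 4.50e-05), a lysosomal protein of blood cells. With Ccnd3, 7 of 15 passed, and with Ccnd2, 6 of 15, again with Tyrobp (r = 0.87, adjusted p = 0.000223) and the receptor gene Csf1r (r = 0.84, adjusted p = 0.000562). Of the B cell genes 4 of 7 passed with Cdk6, 3 of 7 with Ccnd2 and 2 of 7 with Ccnd3, with Cd79b and Ms4a1 in all 3 fits. Of the 9 hepatocyte genes 4 passed with Ccnd2 and 4 with Cdk6, and their list mean was 10.03 in mad562 against at most 7.58 in the other 16 tumors. Of the 13 endothelial genes, 2 passed with Ccnd2, Pecam1 (r = 0.93, adjusted p = 5.76e-05) and Esam (r = 0.70, adjusted p = 0.0384), and Pecam1 also with Cdk6 (r = 0.86, adjusted p = 0.000449). Pecam1, a gene of endothelial cells and of some leukocytes, had the smallest adjusted p of all list genes with Ccnd2. Of 14 fibroblast and pericyte genes Sparc passed with Ccnd2 (adjusted p = 0.0135), and of 11 T and NK cell genes Cd3g (adjusted p = 0.00375). No gene of any of the 17 lists passed in the fits of the other 7 members.

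These counts were taken again without mad562, a check added after the data were seen. With Cdk6, 3 of 15 macrophage genes then passed and 11 had an unadjusted p under 0.05, with 130 of 18192 genes called in all. With Ccnd3 and Ccnd2 no macrophage gene passed by limma, although 11 and 6 had an unadjusted p under 0.05, and 0 and 27 genes were called in all. Over all 18192 genes, 2158 had an unadjusted p under 0.05 with Cdk6, 995 with Ccnd3 and 1507 with Ccnd2. No gene of any other list passed with Ccnd2 or Ccnd3, and no B cell, hepatocyte or endothelial gene with Cdk6. The median r of the macrophage genes was 0.61 with Cdk6, 0.57 with Ccnd3 and 0.32 with Ccnd2, while that of the hepatocyte genes turned from 0.62 to -0.26 with Cdk6 and from 0.63 to -0.22 with Ccnd2. Higher medians with Ccnd2 were those of the fibroblast and pericyte (0.50), B cell (0.46), skeletal muscle (0.45) and endothelial genes (0.39). With all 17 tumors the median r of the macrophage genes was 0.71 with Cdk6, 0.63 with Ccnd3 and 0.59 with Ccnd2, against medians over all genes of -0.09, 0.00 and -0.10.

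**Figure D4:**
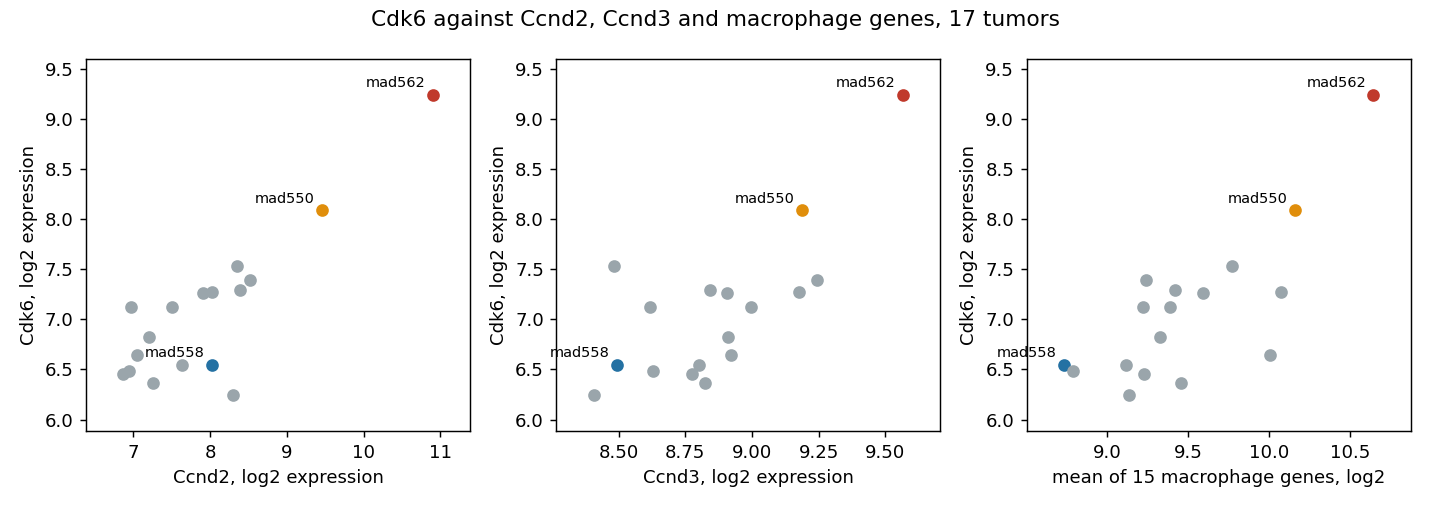
Log2 expression of Cdk6 (y axis) against Ccnd2 (left), Ccnd3 (middle) and the mean of 15 macrophage genes (right) in 17 tumors, 1 point per tumor. Tumors mad562 and mad550 lie at the upper right of the plots, and without mad562 the correlations were 0.67, 0.54 and 0.62.

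None of the 3 macrophage relations passed without mad562. The correlations were then 0.62 for Cdk6 (slope 0.76, adjusted p = 0.120), 0.56 for Ccnd3 (slope 0.34, adjusted p = 0.235) and 0.37 for Ccnd2 (slope 0.65, adjusted p = 0.501). With mad550 and mad562 removed, the 2 tumors most distant from the list's median, r was 0.47, 0.46 and 0.12. The relation of Ccnd3 was also lost without mad558 (slope 0.42, adjusted p = 0.0515). That of Ccnd2 was close to the threshold and was lost in each of 10 fits that left out a single tumor: mad549, mad550, mad551, mad553, mad554, mad560, mad561, mad562, mad563 or mad564, with an adjusted p of 0.0521 to 0.501. In the 9 of these fits that kept mad562 its slope was 1.19 to 1.33. Without mad549, mad550 and mad553 together, Ccnd3 and Cdk6 passed (r = 0.80 and 0.72, adjusted p = 0.0123 and 0.0264) and Ccnd2 did not (slope 1.19, adjusted p = 0.159).

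With the mean of 21 mitosis genes Cdk6 had r = -0.51 (rho = -0.66, permutation p = 0.0450 and 0.00538, slope -2.65 ± 1.07), which did not pass in the fit over all tumors (adjusted p = 0.286). Without mad562 it passed (r = -0.73, adjusted p = 0.0447), as it did when arrays were centred on their medians (r = -0.64, adjusted p = 0.0449). The mitosis list fit called 1.08% of all genes. Every one of the 21 mitosis genes had a negative r with Cdk6 and 6 had an unadjusted p under 0.05, but 0 passed by limma. In the fit of Cdk6, 2715 of all 18192 genes had an unadjusted p under 0.05. The median r of the 21 genes was -0.42 against -0.09 over all genes. Without mad562 it was -0.58 against -0.06, 15 of 21 had an unadjusted p under 0.05 and 1 passed. Of all 18192 genes, 2158 then had such a p and 130 were called. The genes of a list are not independent of each other.

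E2f1 was set against the genes it is known to induce. With the mean of 28 E2F target and replication genes, E2f1 had r = 0.56 (rho = 0.67, permutation p = 0.0259 and 0.00368, slope 0.68 ± 0.28), and Ccne2 had r = 0.54 (rho = 0.67, permutation p = 0.0318 and 0.00407, slope 1.14 ± 0.45). Neither passed over all genes (adjusted p = 0.375 and 0.338), where the fit called 0.176% of genes. With mad553 and mad558 removed, which were most distant from the list's median, r was 0.61 for E2f1 and 0.57 for Ccne2. Of the 28 genes, 26 had a positive r with E2f1, 6 with an unadjusted p under 0.05, and 0 passed by limma. In the fit of E2f1, 1316 of all 18192 genes had an unadjusted p under 0.05. The median r of the 28 genes was 0.36 against 0.07 over all genes, and with Cdk4 it was 0.41 against 0.14. The r of Cdk4 with the list mean was 0.49, and 0.14 without mad553 and mad558. Rb1 and the list had r = 0.01 (rho = 0.13, permutation p = 0.983 and 0.612, adjusted p = 0.996).

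With the macrophage genes Ccne1 had r = -0.62 (rho = -0.62, permutation p = 0.00828 and 0.00954, slope -0.21 ± 0.07). It did not pass (adjusted p = 0.131) except with arrays centred on their medians (r = -0.73, adjusted p = 0.0163). Without mad562 r was -0.47 (adjusted p = 0.444). Rb1 had r = -0.64 with the 20 sympathoadrenal genes (rho = -0.57, permutation p = 0.00628 and 0.0182, adjusted p = 0.186) and, without mad554 and mad560, -0.48. Ccnd2 and Cdk6 had r = 0.70 and 0.69 with the endothelial genes (rho = 0.59 and 0.61, permutation p for r = 0.00125 and 0.00162, for rho = 0.0142 and 0.0108), which did not pass (adjusted p = 0.0681 and 0.0808). Without mad554 both passed (r = 0.78 and 0.81, adjusted p = 0.0122 and 0.00913). With mad554 and mad562 removed, the 2 tumors most distant from the list's median, r was 0.68 for Ccnd2 and 0.73 for Cdk6. Of all lists fitted, Ccnd2 had its highest rho with the fibroblast and pericyte genes (r = 0.54, rho = 0.72, permutation p = 0.03355 and 0.00118). That relation did not pass (adjusted p = 0.374), and r was 0.55 without mad553 and mad563. In all, 17 of the 90 relations had a permutation p for r under 0.05. The fits on the other lists called 0.44% of genes (sympathoadrenal), 0.446% (endothelial), 0.132% (fibroblast and pericyte), 0.484% (skeletal muscle), 0.28% (adipose) and 2.5% (hepatocyte), and no member.

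**Figure D5:**
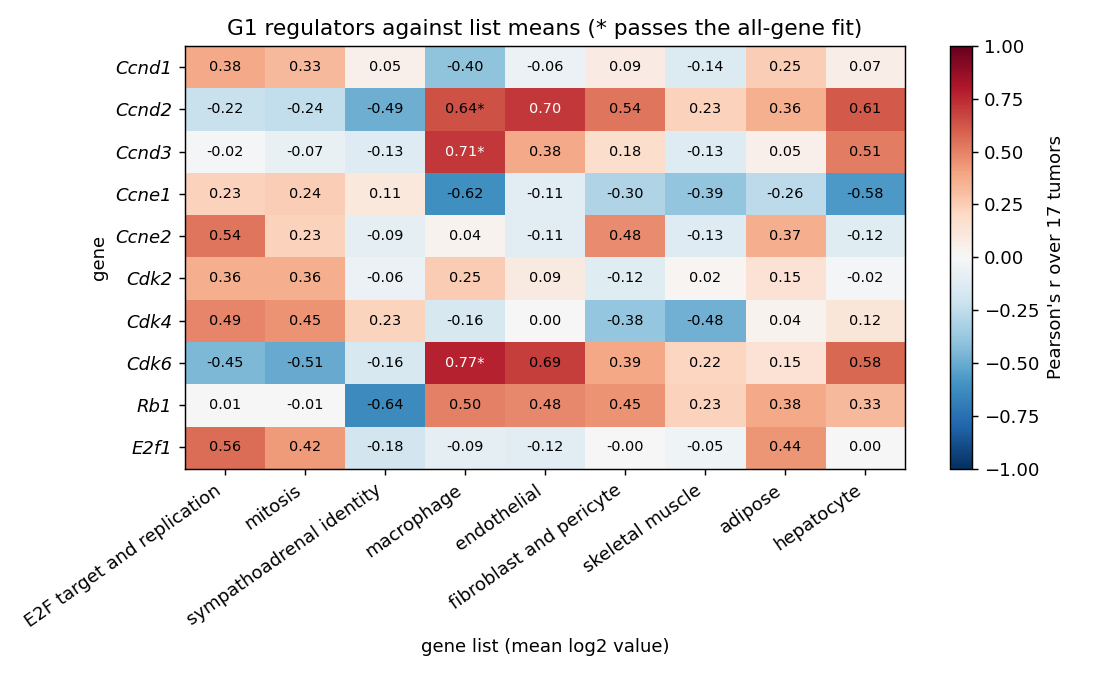
Pearson's r over 17 tumors between each G1 gene (rows) and the mean log2 value of each gene list (columns), as color and number; an asterisk marks the 3 relations that passed in the fit over all genes, all in the macrophage column. Cdk6 had negative values with both cell cycle lists (-0.45 and -0.51), while E2f1 had positive ones (0.56 and 0.42).

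The partners of these genes in the pathway were measured beside them. Of the 9 other E2F and DP genes, 6 were in the highest quartile in every tumor: E2f3, E2f5, E2f6, E2f8, Tfdp1 and Tfdp2. The most even of them was Tfdp1, the dimerization partner of E2F proteins (11.79 ± 0.10, range 11.61 to 11.97). E2f2 and E2f7 had means of 8.96 ± 0.21 and 8.97 ± 0.21, and E2f4, an E2F that acts with pocket proteins as a repressor, 6.73 ± 0.18, all with n = 17. Of the Rb relatives, Rbl1 (p107) was in the highest quartile in every tumor (9.77 ± 0.21) and Rbl2 (p130) in the third (7.83 ± 0.13).

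Of the 7 Cdk inhibitors, Cdkn1c, Cdkn1a and Cdkn2c had the largest SDs (0.73, 0.51 and 0.47). Cdkn1c (p57) ran from 7.25 in mad548 to 10.10 in mad563, Cdkn1a (p21) from 8.34 in mad549 to 9.98 in mad561, and Cdkn2c (p18, an inhibitor of Cdk4 and Cdk6) from 7.94 in mad563 to 9.98 in mad558. Cdkn1b (p27) and Cdkn2d (p19) were even, at 8.75 ± 0.18 and 9.12 ± 0.18. Cdkn2a ranged from 4.24 to 5.25 and Cdkn2b from 5.30 to 6.15, on average in the lowest 2 quartiles of their arrays. Tumor mad563 was thus the lowest for both Cdkn2c and Ccne2, and the highest for Cdkn1c and Cdk4.

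No gene of the 5 pathway lists (other E2F and DP genes, pocket proteins, Cdk inhibitors, Cdk-activating kinase and Cdc25 genes, cyclin turnover genes; 36 genes) passed in any member's fit by limma. Of the 360 values, 36 had an unadjusted p under 0.05, and the smallest adjusted p was 0.0686. The 36 are to be read against all genes. Of 18192 genes tested per fit, 909 (Ccnd1) to 2715 (Cdk6) had an unadjusted p under 0.05. The largest correlation among the 360 was that of Cdkn2c with Ccne2 (r = 0.79, rho = 0.43, adjusted p = 0.385), which was 0.63 without mad562 and mad563.

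For each member, the 3 genes with the most similar pattern over the 17 tumors were listed by Pearson's r, among genes whose mean reached the median over all genes. These were chosen for their r, so no test is given. For Ccnd2 they were Arhgdib (0.93), a gene abundant in blood cells, Lst1 (0.93), a leukocyte gene, and Cd52 (0.92), a leukocyte surface glycoprotein. For Cdk6 they were Mylip (0.96), a ubiquitin ligase of the LDL receptor, Gpr137b (0.95) and Themis2 (0.94), a signaling gene of B cells and macrophages. For Ccnd3 they were Wipf1 (0.86), which binds the actin regulator WASP, Tmem51 (0.86) and Rassf5 (0.85). All 9 genes were highest in mad562, and with the 2 tumors most distant from the member's median removed these correlations were 0.69 to 0.85.

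For Ccnd1 the most similar genes were Zmym1 (0.78), Ankrd13d (0.76) and LTO1 (0.73), all highest in mad558. LTO1 is the annotated neighbor of Ccnd1 and the spans of the genes overlap. Without mad558 and mad565 the correlations were 0.52, 0.37 and 0.61. For Cdk4 they were Fsd1 (0.85), Mepce (0.85), which caps 7SK RNA, and Exosc8 (0.84), a subunit of the RNA exosome. For E2f1 they were Uap1 (0.85), Haspin (0.83), a mitotic histone kinase, and Pif1 (0.83), a DNA helicase, all highest in mad548. With mad553 and mad563 removed for Cdk4, and mad548 and mad565 for E2f1, these correlations were 0.61 to 0.77.

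For Ccne2 the most similar genes were Terf1 (0.87), which binds telomere repeats, Rab9 (0.80) and Cdkn2c (0.79). For Ccne1 they were the kinesin Kif21a (0.79), Fam155a (0.78) and Grip1 (0.76). For Cdk2 they were Rsl24d1 (0.83), Rpa2 (0.83), a subunit of the protein that coats single-stranded DNA, and Mcrs1 (0.80), all highest in mad565. For Rb1 they were Fam220a (0.75), Tm4sf1 (0.74) and Mta3 (0.73). Over these 4 members the correlations were 0.58 to 0.75 with the 2 most distant tumors removed in the same way.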

How the data were processed

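Gene expression was measured on whole-genome Affymetrix mouse arrays of 17 TH-MYCN tumors. The deposited values are log2 expression values per probeset, and the submitters' processing notes name RMA and Partek 6.4; the study's results section names RMA for these arrays and its methods section MAS5. The values were used as deposited. Of 45101 probesets, 64 were controls, 34945 had 1 gene symbol in the platform annotation, 932 several and 9160 none. With 1 array per tumor, the number of tumors sets the precision. Relations over the tumors were fitted with limma 3.58.1 (R 4.3.3; lmFit, eBayes, Benjamini-Hochberg over all genes, threshold 0.05), with the covariate's own genes left out. Pearson's r and Spearman's rho had two-sided permutation tests (100000 permutations, seed 1). The fit was tested on simulated data of 18193 genes: 92 of 100 genes with a true r of 0.9 and 33 of 100 with 0.7 were called, and 4 of 17993 without one. Named genes were the 10 members, the genes of the E2F, pocket protein and inhibitor lists and the 3 most similar genes of each member. List genes that passed, such as Tyrobp and Pecam1, were named after their values were seen. The members and lists were chosen with earlier results of these data known. Python 3.11.15 was used. Alternatives covered probeset choice and type, quartile limits, array centring, a filter on dim genes, the first principal component as a covariate, the variance prior, and tumors left out.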

Additional observations from a re-analysis of the deposited data

How the results depend on the processing

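The count of genes in the highest quartile in every tumor was 4, and 2 if every probeset of a gene had to be in that quartile. It was 3 without probesets of types _x_at, _s_at and _a_at, where Ccne1 was lost, and 5 with quartiles taken among all probesets other than controls. It was 4 without any single tumor. Of the pairs, 2 passed, but 1 with averaged probesets and 1 with arrays centred on their medians (in both, the pair of Ccnd3 and Cdk6 was lost). With genes at or above the median only, 0 passed, since Cdk6 lies below it and was not tested, and 0 passed with the first principal component as a covariate and 0 without mad562. Leaving out each tumor in turn gave 0 to 2, with 1 without mad550. Of the relations with lists, 3 passed, against 6 with centred arrays (Ccne1 with the macrophage list and Cdk6 with both cell cycle lists were added), 1 without mad562 and 0 with the first principal component, which held 21.5% of the variance. Leaving out each tumor in turn gave 1 to 5. The 5 came without mad559, where Ccnd2 and Cdk6 with the hepatocyte list passed (adjusted p = 0.0175 and 0.0183), as they did without mad550 (0.0182 and 0.0460). With the first principal component the slopes on the macrophage list turned negative for Ccnd2 (-1.88, adjusted p = 0.309) and Cdk6 (-0.42, adjusted p = 0.776). That component is highest in mad562 (56.5, next 20.8), and the cause was not tested. Where counts stayed within 1.5 times, the calls could still change. Averaged probesets lost Ccnd3 with the macrophage list (slope 0.14, adjusted p = 0.264), and with dim genes left out Cdk6 was not tested, so 2 relations passed in each. Without mad549, mad550 and mad553 Ccnd2 lost its call with the macrophage list (adjusted p = 0.159) and gained one with the hepatocyte list (r = 0.73, adjusted p = 0.0276). No paired analysis was possible because the tumors form 1 group with 1 array each. Dim probesets limit what can be read from Cdk6 and Cdkn2a. The Ccnd3 pattern rests on 1 probeset, as the others of that gene were dimmer and did not follow it.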
